A study of Rattus norvegicus with 24 samples.

Results

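Rat chromosome 4 was examined for its DNA dose and for CpG island methylation in mammary carcinomas and normal mammary glands. It was represented by 4863 of the 93024 non-control probes of a rat CpG island microarray, that is, by every probe whose annotated position was on chromosome 4. The chromosome was chosen by its Cy3 signal, the level in unenriched DNA, which was high in some arrays, among them 1 normal gland. That level is therefore described below without a test. The probes were 45 to 60 bp long, lay between positions 795716 and 186796854 of the rn4 assembly, and fell into 781 runs of probes at most 1000 bp apart, with a median of 6 probes in a run. A further 54 probes of unplaced chromosome 4 sequence were left out.

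The 24 arrays, 1 for each tissue sample, came from female Sprague-Dawley rats (Jcl:SD). The IR-3W group comprised 7 carcinomas of rats given 2 Gy of whole-body γ-rays from a 137Cs source at 3 weeks of age (pre-pubertal). The IR-7W group comprised 7 carcinomas of rats given the same dose at 7 weeks of age (post-pubertal), and the spontaneous group comprised 7 carcinomas of non-irradiated rats. The 3 normal mammary glands were also labelled as non-irradiated. All rats were switched at 9 weeks of age to a diet rich in corn oil, which promotes mammary tumors. IR-3W tumors 6 and 7 came from 1 rat, as did IR-7W tumors 1 and 2. Pieces of gland and carcinoma hold several cell types, and the DNA of each piece was analysed as a whole.

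CpG islands are short stretches rich in the dinucleotide CpG that often lie at gene promoters, and their methylation is commonly associated with a silent promoter. In this assay, one portion of each DNA sample was enriched for methylated fragments with a methyl-CpG binding protein and labelled with Cy5, while the other portion was left unenriched and labelled with Cy3. The Cy3 signal of a probe depends on how much of that sequence the sample contains, so that gain of a whole chromosome raises the Cy3 signal all along it. The ratio of Cy5 to Cy3 measures enrichment for methylation at each probe. An extra copy of a chromosome raises both channels, and the ratio is then a measure per unit of DNA. In the RefSeq annotation of the later GRCr8 assembly, rat chromosome 4 carries all 53 genes of a list drawn up for this chromosome. They include the Hoxa genes, which set position along the body axis, the growth factor receptor gene Met, the kinase gene Braf, the cell cycle genes Cdkn1b, Cdk6 and Ccnd2, the methyltransferase gene Ezh2 and the imprinted genes Peg10 and Mest. The probes are not paired with gene names here, so probes and windows are given by their rn4 positions, and no gene is assigned to any of them.

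Between 89.6% and 99.2% of the chromosome 4 probes were well above background in Cy3 on each array, and between 72.4% and 95.6% in Cy5. No chromosome 4 spot was saturated. The arrays shared 12 slides in pairs, and the scans fell on 6 days. The only tumor scanned on the day of the 3 glands was spontaneous tumor 3, so that tissue and scan day can hardly be told apart.

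The Cy3 level of chromosome 4 stood out in 4 arrays. For each array, the log2 Cy3 signal of a probe was taken relative to the median of the autosomal probes and then relative to the same value in the median array, and the chromosome 4 level was the median over its probes. Normal gland 1 had a level of 0.14. Normal gland 2 had a level of -0.03 and normal gland 3 a level of -0.04, so the high value was found in 1 of the 3 glands.

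Among the IR-3W tumors, tumor 3 had the highest level of all arrays, 0.23, followed by tumor 2 with 0.20. The other 5 IR-3W tumors lay between -0.05 and -0.02. Among the spontaneous tumors, tumor 5 was at 0.11 and the other 6 lay between -0.06 and 0.01. The IR-7W tumors had no level above 0.05, which was that of tumor 4, and the other 6 lay between -0.03 and -0.01. The levels of the groups thus overlapped, and the high arrays were 1 gland, 2 IR-3W tumors and 1 spontaneous tumor. The tumors that shared a rat differed little from each other in this respect (-0.04 and -0.02 for IR-3W tumors 6 and 7, -0.02 and -0.03 for IR-7W tumors 1 and 2).

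Over the 480 medians of 20 autosomes on 24 arrays, 5 (1.04%) lay further than 0.1 from 0. Of these, 4 were the chromosome 4 levels just named, and the remaining one was a low level of chromosome 6 in IR-7W tumor 6 (-0.34). The largest value inside that limit was 0.07, on chromosome 10 in IR-3W tumor 4. As the rule that chose the chromosome used these levels, their rank is given as a description. In the arrays without a high level, chromosome 4 mostly sat slightly below the other autosomes. The median array of each probe was taken over all 24 arrays, the high ones included, and whether this lowered the level was not tested.

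**Figure D1:**
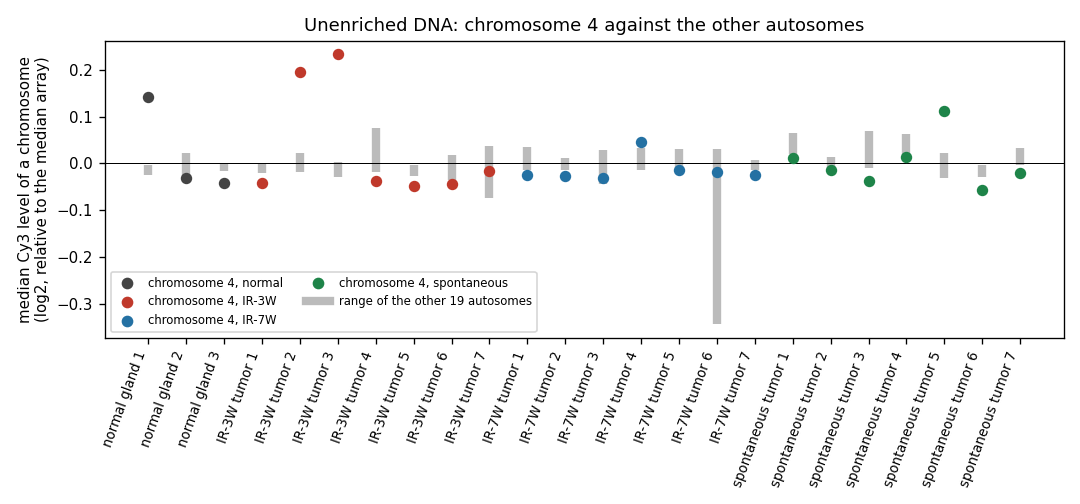
Median Cy3 level of chromosome 4 on each of the 24 arrays (points, coloured by group; log2 scale relative to the median array), with the range of the other 19 autosomes of the same array as a grey bar. Normal gland 1, IR-3W tumors 2 and 3 and spontaneous tumor 5 lie between 0.11 and 0.23, above the bars of their arrays, and the long bar of IR-7W tumor 6 is its chromosome 6.

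The size of the shift can be read as a share of the chromosome 4 level typical of the 24 arrays (their median, -0.02). Chromosome 4 gave 112% of this level in normal gland 1, 116% in IR-3W tumor 2, 119% in IR-3W tumor 3 and 110% in spontaneous tumor 5. For comparison, 3 copies in place of 2 in every cell of a sample would give 150% on an ideal array, which corresponds to 0.58 on the log2 scale. All 4 arrays were below that value. How strongly these arrays respond to a known change in copy number was not measured, and neither the share of cells carrying a change nor the number of copies can be derived from the level.

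Each of the 4 high arrays was set beside its neighbour on the same slide, as a description from the same Cy3 values. Normal gland 1 shared its slide with normal gland 3, and its chromosome 4 signal was higher by 0.20 (115% of normal gland 3), whereas the other autosomes differed by -0.01 to 0.00. All 135 windows of 1 Mb with 5 or more probes were higher in normal gland 1 than in normal gland 3. IR-3W tumor 3 exceeded its slide mate, IR-7W tumor 1, by 0.27 on chromosome 4 and in 134 of the 135 windows. IR-3W tumor 2 exceeded IR-7W tumor 2 by 0.23 and in 133 windows. Spontaneous tumor 5 exceeded IR-7W tumor 4 by only 0.06, in 111 windows, with the other autosomes between -0.02 and 0.01. That slide mate, IR-7W tumor 4, was itself next in level after the 4 high arrays.

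The shift extended over the whole length of the chromosome. When chromosome 4 was divided into 10 stretches of 20 Mb, the median level per stretch was 0.12 to 0.16 in normal gland 1, 0.16 to 0.21 in IR-3W tumor 2, 0.18 to 0.26 in IR-3W tumor 3 and 0.08 to 0.14 in spontaneous tumor 5. No stretch of these 4 arrays was at or below 0. In normal gland 2 the stretches lay between -0.08 and 0.00, and in normal gland 3 between -0.06 and -0.03. In IR-7W tumor 4 they lay between 0.02 and 0.08.

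By 1 Mb window, 131 of the 135 windows were above 0 in normal gland 1, 39 in normal gland 2 and 27 in normal gland 3. The corresponding numbers were 122 in IR-3W tumor 2, 135 in IR-3W tumor 3, 123 in spontaneous tumor 5 and 107 in IR-7W tumor 4. Levels above 0.1 were found in 104 windows of normal gland 1, against 3.59% of the windows of the other autosomes on the same array. They were found in 128 windows of IR-3W tumor 3 against 4.73%, in 101 windows of IR-3W tumor 2 against 7.87%, and in 76 windows of spontaneous tumor 5 against 12.8%.

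**Figure D2:**
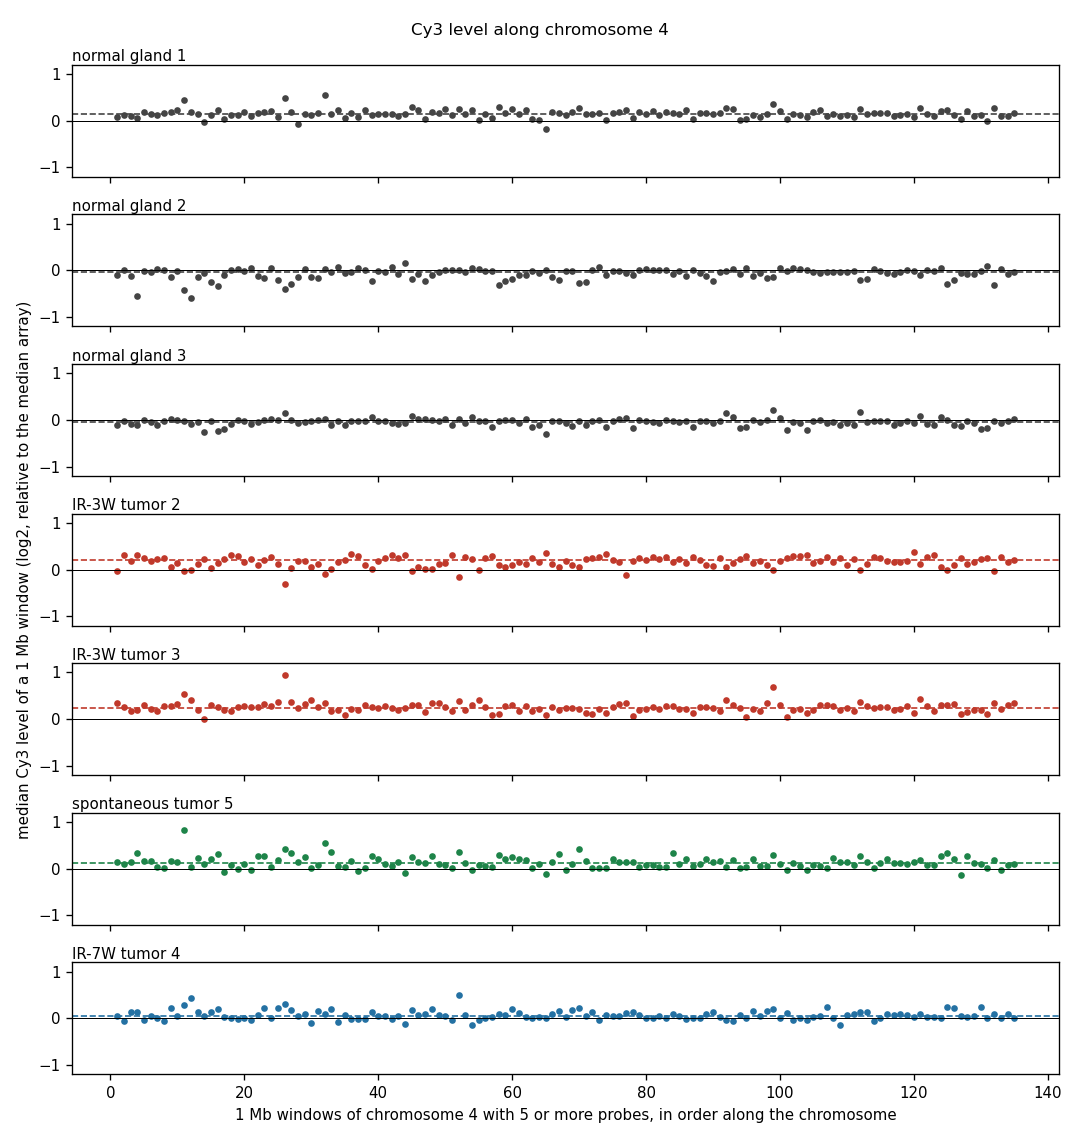
Median Cy3 level (log2, relative to the median array) of each of the 135 windows of 1 Mb with 5 or more probes, in order along chromosome 4, for the 3 normal glands, IR-3W tumors 2 and 3, spontaneous tumor 5 and IR-7W tumor 4. The dashed line is the chromosome 4 level of the array; in the 4 high arrays the points follow a line above 0 from end to end, with a few single windows apart from it.

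Runs of at least 5 neighbouring windows above 0.2 on the log2 scale were found in IR-3W tumors 2 and 3 and in no other array. IR-3W tumor 3 had 7 such runs with 47 windows. The longest covered 14 windows between 26 and 45 Mb (chr4:26000000-44999999) with a median level of 0.30. The other 6 runs of this tumor lay at chr4:7000000-15999999 (median 0.31), chr4:52000000-57999999 (0.25), chr4:68000000-75999999 (0.30), chr4:116000000-123999999 (0.22), chr4:152000000-156999999 (0.27) and chr4:158000000-162999999 (0.26). IR-3W tumor 2 had 2 runs of 5 windows, at chr4:94000000-104999999 with a median of 0.24 and at chr4:116000000-120999999 with a median of 0.25. No run of windows below -0.2 was found on chromosome 4. On the other 19 autosomes the same criterion gave 2 runs over the 24 arrays, 1 of them on chromosome 6 of IR-7W tumor 6. As the level of IR-3W tumor 3 lay close to the 0.2 criterion along the entire chromosome, these runs mark where it was exceeded and were not tested as separate segments. The number of runs was 19 with a criterion of 0.15, where normal gland 1 and spontaneous tumor 5 also had 1 run each, and 0 with 0.3.

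A few single windows stood apart from the chromosome level. In normal gland 1 the highest windows were at 44 Mb (0.54, 12 probes), 37 Mb (0.50, 11 probes) and 13 Mb (0.44, 6 probes). The window at 37 Mb was at -0.39 in normal gland 2 and at 0.16 in normal gland 3. The lowest windows of normal gland 1 were at 84 Mb (-0.18, 8 probes), 40 Mb (-0.06, 5 probes) and 20 Mb (-0.02, 12 probes). All 6 windows held few probes, and in each of them the value of normal gland 1 lay within the range of the other arrays, for example from -0.52 to 0.94 at 37 Mb.

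Windows differed less between arrays of the same slide than between arrays of different slides. After the chromosome 4 level of each array had been removed, the median difference between windows was 0.05 for the 12 pairs of arrays on 1 slide and 0.08 for the 264 pairs on different slides. The widest spread of any run of 3 or more probes was 2.79, at a run of 4 probes at chr4:37133177-37133619. In that run IR-3W tumor 3 and its slide mate IR-7W tumor 1 were 1.57 and 1.71 above their chromosome 4 level, IR-3W tumor 4 and its slide mate IR-7W tumor 7 were 1.59 and 1.64 above it, and spontaneous tumor 5 and its slide mate IR-7W tumor 4 were 1.69 and 1.39 above it. IR-3W tumor 7 and its slide mate IR-7W tumor 3 were at -1.08 and -1.01. Other slide mates lay further apart at this run, by 0.74 for IR-3W tumors 1 and 6, 0.57 for IR-3W tumor 2 and IR-7W tumor 2, and 0.56 for normal glands 1 and 3. A Cy3 spread over 1 was found in 74 of 708 runs of chromosome 4 (10.5%) and in 1256 of 12016 runs of the other autosomes (10.5%).

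The Cy5 signal of the methylation-enriched portion was also higher on chromosome 4 in the same arrays. Relative to the other autosomes of the array, the chromosome 4 Cy5 level was 0.15 in normal gland 1, 0.12 in IR-3W tumor 2, 0.14 in IR-3W tumor 3 and 0.09 in spontaneous tumor 5. In Cy3 the same measure was 0.16 in normal gland 1, 0.19 in IR-3W tumor 2, 0.25 in IR-3W tumor 3 and 0.12 in spontaneous tumor 5. IR-7W tumor 4 had 0.04 in Cy5 and 0.05 in Cy3. The remaining 19 arrays lay between -0.05 and 0.02 in Cy5. Normal gland 1 was therefore raised to nearly the same extent in both channels, and IR-3W tumor 3 less in Cy5 than in Cy3. As both channels came from the same piece of tissue and the same array, they are not independent measurements of the sample.

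**Figure D3:**
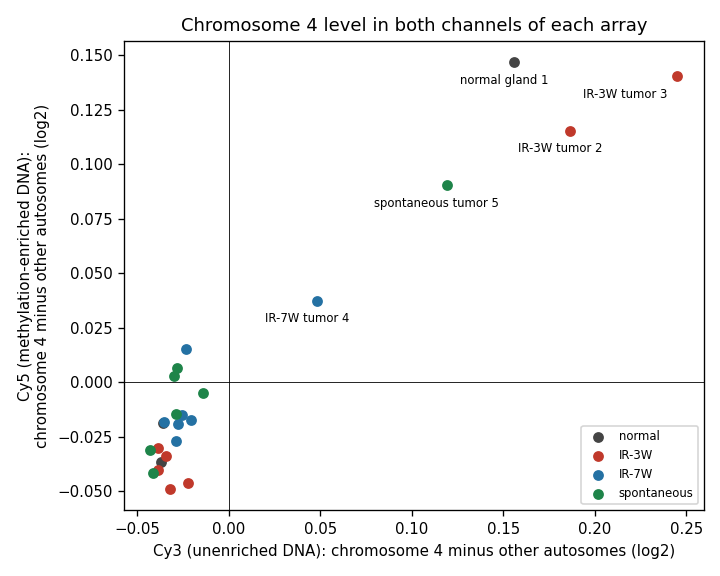
Chromosome 4 level minus the level of the other autosomes, in Cy3 (horizontal axis) and in Cy5 (vertical axis), both on the log2 scale; each point is 1 array, coloured by group. The 4 high arrays lie between 0.12 and 0.25 in Cy3 and between 0.09 and 0.15 in Cy5, IR-7W tumor 4 lies between them and the rest, and the other 19 arrays are at or below 0.02 in both.

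The shift was present at methylated and unmethylated islands alike. The 4863 probes were divided by their mean log2 ratio over the 24 arrays into 672 with a ratio above 1.5, 1634 between 0 and 1.5 and 2557 at or below 0. In IR-3W tumor 3 the Cy3 excess of chromosome 4 over the other autosomes was 0.21, 0.22 and 0.28 in these classes, and in normal gland 1 it was 0.14, 0.16 and 0.18. In IR-3W tumor 2 it was 0.21, 0.17 and 0.18, and in spontaneous tumor 5 it was 0.11, 0.10 and 0.15. The other 20 arrays stayed between -0.08 and 0.06 in every class. When probes were divided into 4 classes of Cy3 brightness, the excess of IR-3W tumor 2 was lowest in the dimmest class, 0.11, against 0.17 to 0.21 in the other classes. That of the other 3 arrays was highest in the dimmest class (0.21 in normal gland 1, 0.30 in IR-3W tumor 3 and 0.16 in spontaneous tumor 5).

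The level depended in part on how it was computed. With normexp background correction IR-3W tumor 2 was at 0.05, below IR-7W tumor 4 (0.07), and with the mean in place of the median over probes it was at 0.05, below IR-7W tumor 4 (0.12). When the other autosomes of the array were subtracted, a comparison added after the data had been seen, the same tumor was at 0.12 with normexp and at 0.18 with the mean. All 4 arrays were above the other 20 under each of these within-array comparisons, with the narrowest separation under normexp (at least 0.07 against at most 0.03).

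The enrichment ratio of chromosome 4 was examined next. The log2 ratio of Cy5 to Cy3 was set to a median of 0 on every array, so that a loss or gain of methylation common to all probes cannot be seen. The median ratio of the chromosome 4 probes was -0.05, 0.00 and -0.04 in normal glands 1, 2 and 3. In the IR-3W tumors it ranged from -0.17 to -0.04 with a median of -0.04, in the IR-7W tumors from -0.08 to -0.01 with a median of -0.03, and in the spontaneous tumors from -0.09 to -0.02 with a median of -0.05. The lowest ratios were found in IR-3W tumor 3 (-0.17), IR-3W tumor 2 (-0.11), spontaneous tumor 5 (-0.09) and IR-7W tumor 4 (-0.08), which were also the 4 tumors with the highest Cy3 level. In IR-3W tumors 2 and 3, chromosome 4 had the lowest median ratio of the 20 autosomes. Normal gland 1 did not share this pattern, its ratio being the eighth lowest of the 20. The Cy3 signal is the denominator of the ratio, so the 2 readings are linked by construction.

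Averaged over arrays, the 21 tumors had a median chromosome 4 ratio of -0.05 ± 0.04 (SD, n = 21), and the 3 glands had one of -0.03 ± 0.03 (SD, n = 3). The difference of -0.02 was within the spread between arrays of either kind. It became 0.10 when the mean over probes was used.

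In IR-3W tumor 3, the ratio was lower at the less methylated probes. Its chromosome 4 ratio relative to the other autosomes, each probe being taken against its median over the arrays, was -0.11 for probes with a mean ratio at or below 0, -0.09 for those between 0 and 1.5, and 0.02 for those above 1.5. In IR-3W tumor 2 the values were -0.03, -0.08 and 0.03, and in spontaneous tumor 5 they were -0.013, -0.01 and 0.07. In normal gland 1 they were 0.01, -0.04 and -0.02. The other 20 arrays ranged from -0.08 to 0.10 for the most methylated class, from -0.03 to 0.05 for the middle class and from -0.011 to 0.03 for the least methylated class. The values of IR-3W tumors 2 and 3 in the lower 2 classes thus lay below the range of the other 20 arrays, as did that of normal gland 1 in the middle class and, by a small margin, that of spontaneous tumor 5 in the lowest class, and those of all 4 arrays at the most methylated probes lay within it.

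Of the probes at the upper end, between 6.81% and 9.75% of the chromosome 4 probes had a ratio above 2 in the 3 normal glands, and between 7.28% and 16.2% in the 21 tumors. Over all probes the share was 11.02% to 14.9% in the glands and 10.5% to 20.6% in the tumors, and it was higher than that of chromosome 4 on all 24 arrays. The highest share was that of IR-3W tumor 1, whose 95th percentile was 5.40, against 3.18 to 3.42 in the other 6 IR-3W tumors. This tumor also had the highest share of probes above 2 over all chromosomes (20.6%).

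To find CpG islands of chromosome 4 that differed between carcinomas and normal glands, the 21 tumors were compared with the 3 glands probe by probe (limma, Benjamini-Hochberg adjustment over all 93024 probes, adjusted p under 0.05). Of the 4863 chromosome 4 probes, 519 were higher and 663 lower in tumors. Over the entire array 22.8% of the probes differed, against 24.3% on chromosome 4. Higher probes made up 10.67% of chromosome 4 and 10.5% of the array, and lower probes 13.6% and 12.3%. The other autosomes ranged from 19.98% to 25.96%, and chromosome 4 lay within that range.

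The probes that were higher in tumors had a median difference of 0.95 in the log2 ratio, made up of 1.02 in Cy5 and 0.03 in Cy3. The lower probes had a median difference of -0.73, with -0.82 in Cy5 and -0.08 in Cy3. All 519 higher probes were also higher in Cy5 and all 663 lower probes were lower in Cy5. The difference exceeded 1 in 244 higher probes (5.02%, against 4.71% of the array) and was below -1 in 109 lower probes (2.24%, against 2.11%). All 21 tumors were above all 3 glands at 151 of the higher probes (2.83% of the array had this pattern), and all 21 tumors were below all 3 glands at 379 of the lower probes (6.85% of the array). The median standard error over the chromosome 4 probes was 0.26.

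The direction depended on the level in the normal gland. Of the 1408 probes with a mean gland ratio at or below -0.5, 222 were higher and 8 lower in tumors. Of the 1091 probes with a gland ratio between -0.5 and 0, 128 (11.7%) were higher and 132 (12.1%) lower, against 11.7% and 10.4% over the array. Of the probes with a gland ratio between 0 and 1, 143 (8.98%) were higher and 450 lower, against 8.86% higher over the array. Of the 351 probes between 1 and 2, 22 (6.27%) were higher and 72 (20.5%) lower, against 9.96% and 17.7%. Of the 421 probes with a gland ratio above 2, 4 (0.95%) were higher and 1 (0.238%) was lower, against 1.05% and 0.159% over the array. Over the array, 16.0% of the probes in the lowest class were higher and 29.2% of those between 0 and 1 were lower, against 15.8% and 28.3% on chromosome 4. The gland values enter both the class and the difference, so they are not independent of each other.

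Of the 781 runs, 503 (64.4%) contained a probe that differed, against 60.6% of the 14445 runs of the array. In 177 of them probes differed only towards higher values, in 227 only towards lower values, and in 99 in both directions. These were 22.7%, 29.1% and 12.7% of the chromosome 4 runs, against 21.9%, 26.4% and 12.3% over the array. Where at least 2 probes of a run differed, they went one way in 203 of 302 runs (67.2%), against 66.9% over the array. Of the 517 runs with 5 or more probes, 9 (1.74%) had at least 80% of their probes higher in tumors and 2 (0.387%) had at least 80% lower, against 1.49% and 0.268% over the array. The 2 lower runs were at chr4:67099505-67100166, with 8 of 10 probes and a mean ratio of -0.07 in glands and -0.48 in tumors, and at chr4:144138213-144139716, with 6 of 7 probes and a mean ratio of 0.68 in glands and -0.21 in tumors.

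The 9 higher runs included chr4:31761386-31761814 (7 of 8 probes, -0.87 in glands and 0.46 in tumors), chr4:149071198-149072808 (6 of 6 probes, 0.89 and 2.02) and chr4:163013123-163013517 (5 of 6 probes, 0.39 and 1.41). The other 6 lay in a single 1 Mb window, chr4:80000000-80999999. This window held more probes than any other of the chromosome, 196 in 27 runs. Its mean ratio was 0.51, 0.12 and 0.45 in normal glands 1, 2 and 3. It ranged from 0.74 to 1.63 in the IR-3W tumors with a median of 1.17, from 0.94 to 1.5 in the IR-7W tumors with a median of 1.38, and from 0.82 to 1.77 in the spontaneous tumors with a median of 1.21. All 21 tumors were above all 3 glands, and the tumor groups overlapped. How many windows of the genome separated tumors from glands in this way was not counted. The difference between tumors and glands was 0.85 with a standard error of 0.17 (limma, adjusted p = 0.0023), the largest rise of any chromosome 4 window. In this window 90 probes were higher and 2 were lower. The mean Cy3 difference of its probes was -0.003 and the mean Cy5 difference was 0.86.

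**Figure D4:**
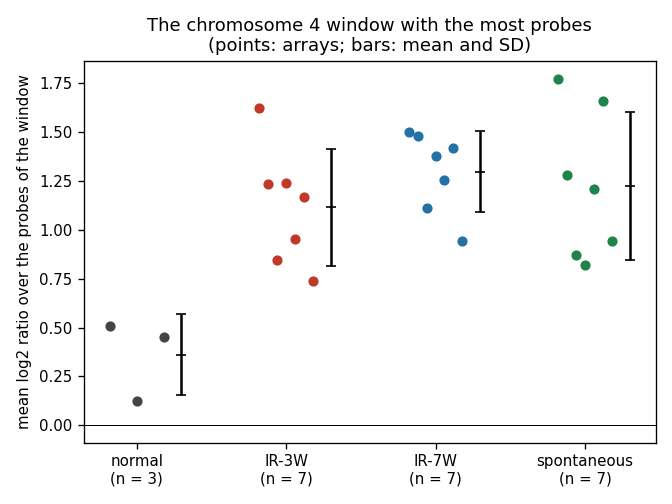
Mean log2 ratio of Cy5 to Cy3 over the 196 probes of chr4:80000000-80999999 on each array, by group; points are arrays, and bars give the mean and SD of the group. The 3 normal glands lie between 0.12 and 0.51 and the 21 tumors between 0.74 and 1.77.

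The higher probes in this window were concentrated between 80503631 and 80554074. In these 50444 bp, 63 of 96 probes in 11 runs were higher and 0 were lower. At chr4:80545812-80546948, 12 of 12 probes were higher, and the mean ratio was -0.16 in glands and 1.66 in tumors. At chr4:80525137-80526583, 10 of 11 probes were higher, with -0.02 in glands and 1.68 in tumors. At chr4:80532639-80535406, 14 of 17 probes were higher, with 0.03 in glands and 1.47 in tumors. At chr4:80530727-80531239, 6 of 6 probes were higher, with -0.27 and 1.03, and at chr4:80540549-80540933, 4 of 5 were higher, with 0.20 and 1.43. The sixth run, at chr4:80472476-80472941, was already enriched in glands (1.42) and higher still in tumors (2.72), in 8 of 8 probes. Other runs of the stretch varied: 7 of 9 probes were higher at chr4:80516816-80517807 (-0.12 in glands and 1.34 in tumors), 0 of 9 passed the test at chr4:80503631-80504861 (1.43 and 1.49), and 0 of 4 passed at chr4:80549563-80549870 (0.59 and 0.09). The stretch was delimited after its values had been seen.

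Higher probes were unevenly distributed along the chromosome. By stretches of 20 Mb, 23.2% of the probes between 80 and 100 Mb were higher in tumors, against 4.76% to 11.3% in the other 9 stretches. Without the window from 80 to 81 Mb, 24 of the remaining 295 probes of that stretch (8.14%) were higher. Lower probes ranged from 6.11% in the stretch from 80 to 100 Mb to 18.5% in the last stretch.

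By 1 Mb window, 19 of the 135 windows of chromosome 4 (14.1%) differed between tumors and glands, 11 being higher and 8 lower, against 18.8% of the 1982 windows of the genome (219 windows higher, and 153, or 7.72%, lower). The direction turned with the processing. With normexp 4 windows were higher and 7 lower (35 and 195 over the genome), and with only the probes above background in Cy3 9 were higher and 17 lower (157 and 285). After the window from 80 to 81 Mb, the largest rises were at chr4:49000000-49999999 and chr4:164000000-164999999. At 49 Mb (26 probes) the mean ratio was 0.18, 0.02 and 0.17 in the glands and 0.25 to 1.48 in the tumors with a median of 0.79, a difference of 0.69 (SE 0.18, limma adjusted p = 0.0087). At 164 Mb (30 probes) it was 0.34, 0.17 and 0.50 in the glands and 0.40 to 1.65 in the tumors with a median of 1.05, a difference of 0.68 (SE 0.21, limma adjusted p = 0.021). At 49 Mb the groups did not overlap, and at 164 Mb 19 of the 21 tumors were above all 3 glands.

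The 3 largest falls were in windows of 9 to 12 probes. At chr4:41000000-41999999 (9 probes) the mean ratio was 0.05, 0.24 and 0.12 in the glands and -0.61 to -0.13 in the tumors, a difference of -0.45 (SE 0.07, limma adjusted p = 0.00055). At chr4:123000000-123999999 (11 probes) it was 0.06, 0.25 and 0.20 in the glands and -0.46 to -0.03 in the tumors, a difference of -0.44 (SE 0.07, limma adjusted p = 0.00065). At chr4:179000000-179999999 (12 probes) it was 0.04, -0.06 and 0.08 in the glands and -0.62 to -0.15 in the tumors, a difference of -0.34 (SE 0.07, limma adjusted p = 0.0028). In these 3 windows all 21 tumors were below all 3 glands. All 6 windows named here were chosen for the size of their difference, and the share of windows of the genome without overlap was not counted. With the slide or the scan day as a block, 0 of the 6 windows named here, that from 80 to 81 Mb included, passed the threshold (limma, adjusted p at least 0.45 and 0.22).

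**Figure D5:**
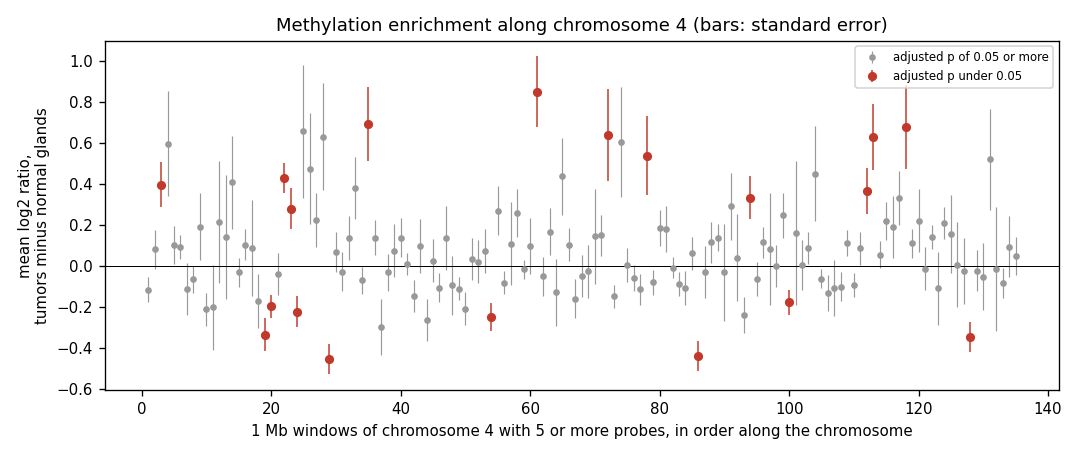
Difference of the mean log2 ratio of Cy5 to Cy3 between the 21 tumors and the 3 normal glands for each of the 135 windows of 1 Mb, in order along chromosome 4; bars are standard errors, and red points are the 19 windows with an adjusted p under 0.05. The highest point, 0.85, is the window from 80 to 81 Mb, and the lowest red point, -0.45, is the window at 41 Mb.

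Among single probes, the largest rises lay in the same window as the dense runs. Probe A_45_P03681307 (chr4:80526455-80526514) had a ratio of 0.39, -0.43 and -0.15 in the glands and 1.03 to 4.05 in the tumors with a median of 2.66. Its difference was 2.66 (SE 0.44, limma adjusted p = 0.00025). Probe A_45_P03681467 (chr4:80546100-80546150) had -0.43, -1.34 and -0.61 in the glands and -0.12 to 3.49 in the tumors, a difference of 2.40. Probe A_45_P03681379 (chr4:80535172-80535226) had 0.89, 0.28 and 0.72 in the glands and 2.07 to 4.33 in the tumors, a difference of 2.13. At each of these 3 probes all 21 tumors were above all 3 glands.

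Outside that window, probe A_45_P18945343 (chr4:159243081-159243138) had -0.30, -0.99 and -0.62 in the glands and 0.24 to 2.98 in the tumors, a difference of 2.10, and 5 of the 14 probes of its run were higher. Probe A_45_P03773971 (chr4:104146298-104146344) had -0.28, -0.54 and -0.17 in the glands and 0.30 to 2.77 in the tumors, a difference of 2.09, and 4 of the 8 probes of its run were higher. Both probes had all 21 tumors above all 3 glands.

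The largest falls lay in several parts of the chromosome, with A_45_P03548882 and A_45_P03549634 in the same 1 Mb window, at 55 Mb. Probe A_45_P03548882 (chr4:55059007-55059054) had 0.67, 1.19 and 1.53 in the glands and -2.05 to 0.30 in the tumors, a difference of -1.72 (SE 0.37, limma adjusted p = 0.0016). In its run 2 of 5 probes were lower. Probe A_45_P03883173 (chr4:126292570-126292619) had 0.54, 0.60 and 0.81 in the glands and -1.92 to -0.07 in the tumors, a difference of -1.62, with 5 of the 8 probes of its run lower. Probe A_45_P03549634 (chr4:55293940-55293984) had 0.92, 1.23 and 1.22 in the glands and -1.49 to 0.56 in the tumors, a difference of -1.61. In its run 1 of 7 probes was lower. All 21 tumors were below all 3 glands at these 3 probes.

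Probe A_45_P18600377 (chr4:83003202-83003246) had 1.68, 1.82 and 1.97 in the glands and -0.62 to 0.94 in the tumors, a difference of -1.58, again without overlap. In its run 1 of 5 probes was lower. The probe with the largest fall of all, A_45_P04042324 (chr4:157071712-157071760), was at -0.29, 2.96 and 1.18 in the glands and at -2.32 to 1.43 in the tumors, a difference of -1.87 (SE 0.63, limma adjusted p = 0.034). Its glands spanned more than the difference, and 2 of the 4 probes of its run were lower. At this probe 14 of the 21 tumors were below all 3 glands. Leaving out single arrays gave -2.66 (without normal gland 1) to -1.03 (without normal gland 2), and it did not pass the threshold without normal gland 2 or 3.

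The counts changed over the whole array with the glands included and with slide or scan day as a term. Without normal gland 2 the number of chromosome 4 probes that differed was 557 (9649 over the array), without normal gland 3 it was 559 (9741), and without normal gland 1, the gland with the high Cy3 level, it was 931 (17325). Without all 4 arrays of high Cy3 level it was 872 (15951). With the scan day as a block it was 38 (688 over the array), and 895 at an unadjusted p under 0.05 (15577 over the array). With the slide as a block it was 0 (17 over the array), and 728 at an unadjusted p under 0.05 (13325 over the array). The first of these estimates rests on 1 tumor, spontaneous tumor 3, against the 3 glands of its scan day, and the second on that tumor against normal gland 2 of its slide. Spontaneous tumor 3 was therefore also set against the glands at the probes that passed with the other 20 tumors, which were 513 higher and 676 lower. It lay above the gland mean at 486 of the 513 (94.7%), with a median difference of 0.75 against 0.96 for the mean of the other 20 tumors. It lay below the gland mean at 652 of the 676 (96.4%), with a median difference of -0.63 against -0.74. Over all 4863 chromosome 4 probes it was above the gland mean at 48.2% and below it at 51.8%. This comparison was chosen after seeing the data, and because the same 3 glands enter both differences, the 2 are not independent. Of the 10 probes named above, 0 passed the threshold with the slide block and 2 with the scan day block, where A_45_P04042324 turned to 0.15.

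Methylation of chromosome 4 was then compared among the tumor groups, to ask whether age at exposure or irradiation was associated with a difference. Between IR-7W and IR-3W tumors, 0 chromosome 4 probes passed the adjusted threshold (0 of all 93024 probes; lowest adjusted p on chromosome 4 0.11 in limma). At an unadjusted p under 0.05, 359 chromosome 4 probes (7.38%) differed, against 6.49% of the array. Of these, 267 were higher and 92 lower in IR-7W tumors, against 4.1% and 2.39% of the array. The median difference over the chromosome 4 probes was 0.02, the highest of the 20 autosomes, the others lying between -0.06 and 0.00. As 2 of the 7 IR-3W tumors had a high Cy3 level on this chromosome, the direction was examined without them. The split became 231 higher and 124 lower without the 4 arrays of high Cy3 level (3632 and 3038 over the array), and 231 higher and 135 lower when each chromosome was centred on its own median (3779 and 2280 over the array). With normexp the number was 207, of which 160 were higher and 47 lower (1875 and 2001 over the array). The mean of the array medians was -0.07 ± 0.05 (SD, n = 7) in IR-3W tumors and -0.03 ± 0.02 (SD, n = 7) in IR-7W tumors, and -0.05 in the 5 IR-3W tumors without tumors 2 and 3. Without IR-7W tumor 7, 6 chromosome 4 probes passed the adjusted threshold, as did 82 over the array, all 82 being higher in IR-7W tumors.

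Between spontaneous and IR-3W tumors, 0 chromosome 4 probes passed the adjusted threshold (limma, lowest adjusted p 0.32), against 8 over the array (0.0086%). With the scan day as a block 6 passed, all higher in spontaneous tumors (73 over the array, 63 of them higher). At an unadjusted p under 0.05, 483 differed (9.93%, against 10.2% of the array), of which 275 were higher and 208 lower in spontaneous tumors, against 4.48% and 5.75% of the array. Without the 4 arrays of high Cy3 level these were 193 higher and 188 lower (3371 and 4431 over the array). With each chromosome centred on its own median the split turned to 234 higher and 280 lower (4296 and 5300 over the array). It also turned to 214 and 314 without spontaneous tumor 1 (3255 and 8676 over the array), 336 and 439 without spontaneous tumor 6 (5021 and 11089), and 226 and 243 without IR-3W tumor 3 (3803 and 5656). The replicate block gave 263 and 436 (3870 and 11960), and the fit of all 24 arrays 313 and 412 (4935 and 10626). The number of probes was 775 without spontaneous tumor 6 and 181 with normexp, so that neither it nor its direction was stable. Between spontaneous and IR-7W tumors, 0 probes passed (lowest adjusted p 0.91 in limma). At an unadjusted p under 0.05, 227 differed (4.67%, against 3.93% of the array), 84 being higher and 143 lower in spontaneous tumors, against 1.54% and 2.38% of the array. Without spontaneous tumor 6 the number was 458, of which 133 were higher and 325 lower (8452 over the array), and with normexp it was 105 (2102 over the array). The split turned to more higher than lower probes with the slide block and with the scan day block. The 3 comparisons share tumor groups and are not independent, and the hormone receptor status of the tumors was not used here. The study reported no estrogen receptor negative tumor in the IR-7W group, so age at irradiation cannot be told apart from estrogen receptor status. The median standard error of a probe was 0.21 to 0.22, and 90% of the chromosome 4 probes had a difference between -0.51 and 0.64 for IR-7W against IR-3W tumors.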

How the data were processed

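DNA of 21 carcinomas and 3 normal glands was hybridised to 2-colour Agilent arrays. The authors extracted the deposited intensity values (gProcessedSignal for Cy3, rProcessedSignal for Cy5) with Agilent Feature Extraction 10.7.3.1, per the file headers, with positions of the rn4 assembly and no lowess dye normalization. The authors' deposited series matrix holds log2 ratios, which equalled the scanner log2 ratios within 0.001 for 97.9% to 99.6% of probes per array and served as an alternative. The LogOdds of the study's own software was not used here.

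Outlier spots (0 to 35 per array) were left out. Log2(Cy5/Cy3) was centred on each array's median over all non-control probes. Loess was not applied because many probes carry signal. The R package limma (version 3.58.1; R 4.3.3) was used to test differences over all probes, or over 1982 windows of 1 Mb with 5 or more probes (mean ratio), with Benjamini-Hochberg adjustment and a threshold of 0.05. P-values measure the spread between the deposited samples; 2 pairs of tumors shared a rat. On simulated data for the comparison of tumors with glands, 182 of 200 probes changed by 4 times their residual SD, as moderated by limma, were recovered. There were 6 false calls over 92854 probes. For IR-7W against IR-3W, 189 of 200 such probes were recovered with 11 false calls. The simulated noise was normal and independent between probes and arrays, without slide or scan day effects. These counts therefore do not cover errors from such effects. Cy3 and Cy5 levels were computed in Python 3.11.15. The number of arrays limits the precision.

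The named probes were the 5 with the largest difference in each direction past the threshold, at most 1 per run. The named windows were the 3 largest in each direction, every run of Cy3 windows and the 3 highest and lowest Cy3 windows of normal gland 1. The chromosome, its members and the lists were chosen with earlier results of these data known. Alternatives were background correction, centring, scaling, filters, blocks for slide, scan day and replicate number, 1 tumor per rat, the methods' t-test and leaving out arrays. Same-numbered samples of different groups came from different rats. Their deviations from the group means had correlations between -0.25 and 0.52, and differently numbered samples were not set beside them.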

Additional observations from a re-analysis of the deposited data

Results flagged for a closer look

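In 57 sets of 7 tumors, each a chromosome 4 ratio value in 1 tumor group, the highest or lowest tumor was set against the other 6 by the ratio of its gap to the range of the group (Dixon's test). The Cy3 level, by which the chromosome was chosen, and the Cy5 level and median ratio of the whole chromosome were not tested in this way. Chance marks about 1 in 20 such sets, and 4 stood apart. IR-3W tumor 1 had a 95th percentile of the chromosome 4 log2 ratio of 5.40 against 3.18 to 3.42 in the other IR-3W tumors, and 16.2% of its chromosome 4 probes had a log2 ratio above 2 against 9.40% to 12.3%. The mean log2 ratio of the window at 41 Mb was -0.131 in IR-3W tumor 6, against -0.41 to -0.31 in the other IR-3W tumors. That of the window at 123 Mb was -0.0794 in spontaneous tumor 2, against -0.38 to -0.26 in the other spontaneous tumors. In both windows the tumor lay nearer to the normal glands than the rest of its group.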

How the results depend on the processing

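Most settings left the comparison of tumors with glands within 1.5 times its number of chromosome 4 probes (519 higher and 663 lower) and of windows (19). The exceptions for probes were the slide block (0) and the scan day block (38), and leaving out single arrays gave 557 to 1281. For windows they were normexp (11, of which 4 higher), the slide block (0) and the scan day block (0). At an unadjusted p under 0.05 the scan day block gave 17 windows (185 over the genome) and the slide block 14 (176 over the genome). Leaving out single arrays gave 5 to 21 windows, with 5 without normal gland 2 and 8 without normal gland 3. The methods' t-test gave 1198 probes after adjustment (21521 over the array), and 189 higher and 446 lower at an unadjusted p under 0.001. For IR-7W against IR-3W tumors it gave 0, and 59 higher and 2 lower at an unadjusted p under 0.005. These apply only the p part of the study's criteria, to log2 ratios, without its minimum difference in LogOdds. Counts at these unadjusted thresholds were not taken over the array, so they cannot be read as particular to chromosome 4. In the main fit of IR-7W against IR-3W tumors the array also leaned higher at an unadjusted p under 0.05 (3814 higher and 2226 lower). The replicate block, with numbers that belong to different rats in each group, gave 1051 probes and 21 windows. Of the 10 named probes, 2 passed with the scan day block, 0 with the slide block (lowest adjusted p = 0.050 in limma) and 9 with the replicate block. A_45_P04042324 turned to 0.15 with the scan day block. Of the 6 named windows, 0 passed with either block, and 3 with normexp; without the 4 arrays of high Cy3 level 10 named probes and 5 named windows passed. The cause of these losses was not tested. For IR-7W against IR-3W tumors, leaving out single tumors gave 0 to 6 probes. For spontaneous against IR-3W tumors the scan day block gave 6, all higher (73 over the array, 63 higher), and leaving out single tumors 0, as for spontaneous against IR-7W tumors.

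The number of arrays with a chromosome 4 Cy3 level beyond 0.1 was 4, and 12 with the mean over probes (4 high, 8 low). With only probes above background it was 3, spontaneous tumor 5 being at 0.091. With normexp it was 4, of which 2 were high (normal gland 1 and IR-3W tumor 3) and 2 low, with IR-3W tumor 2 at 0.054 and spontaneous tumor 5 at 0.094. It was 2 with normexp after the other autosomes were subtracted, chosen after seeing the data, where the levels of IR-3W tumors 2 and 3 remained above 0.1. With normal glands 2 and 3 as the reference it was 6. The 9 runs of windows became 19 at a criterion of 0.15, 0 at 0.3 and 3 with windows of 2 Mb. The median ratio difference of -0.02 became 0.10 with the mean over probes, and leaving out single arrays gave -0.03 to -0.01. The chromosome centring and the omission of the 4 high arrays were likewise chosen after seeing the data.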

Other observations

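The chromosome 6 level of IR-7W tumor 6 was the only autosomal Cy3 median besides those of chromosome 4 to lie further than 0.1 from 0 among the 480 examined, at -0.34, and in Cy5 the lowest autosome of that array was at -0.26. On chromosome 4 the same tumor was at -0.02 in Cy3 and -0.04 in Cy5.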
